A study of Mus musculus with 16 samples.

Results

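The B cell receptor signalling core described here is the set of genes that carries a signal from the antigen receptor to Ras and NF-kB. It holds the receptor chains Cd79a and Cd79b, the kinases Lyn, Syk and Btk, the adaptor Blnk, the phospholipase Plcg2, the kinase Prkcb and the Ras activator Rasgrp3. Their probe sets were taken by gene symbol alone, as every probe set of the deposited expression table to which the platform annotation gives one of these 9 symbols. The genes themselves were chosen with earlier results of these data known. There were 14 such probe sets of 8 genes among 45101 probe sets in all, and Lyn was not analysed here. Of the 14, 13 passed the filter on low values, so that all 8 of these genes were tested, each through the probe set with the highest mean.

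The study compared B cells of C57BL/6 mice (B6) and of B6.Sle2c1 mice, which carry the lupus susceptibility interval Sle2c1 on the B6 background. Mice were 5 months of age in all 4 groups, and each group had 4 arrays. B6_B1a and Sle2c1_B1a are B1a cells of the peritoneal cavity. They went through a 2 h adherence step in 10% serum to take out macrophages, a depletion with antibodies to Thy1.2 and CD3ε and a selection with an antibody to CD5, to a stated 80% of B220int CD5+ cells. B6_Bs and Sle2c1_Bs are CD43-negative splenic B cells isolated with a kit, to a stated purity above 90% of B220hi cells. The B1a and Bs groups therefore differ in organ, in isolation and in the time spent in culture as well as in cell type, and these cannot be told apart. The labels do not say whether mice were pooled for an array.

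When antigen binds the membrane immunoglobulin, Src family kinases such as Lyn phosphorylate the tails of the Cd79a and Cd79b chains, and Syk docks there and becomes active. Syk phosphorylates the adaptor Blnk, which brings Btk and the phospholipase Plcg2 together. Plcg2 then makes inositol trisphosphate, which releases calcium, and diacylglycerol, which activates Prkcb on the way to NF-kB and recruits Rasgrp3 to load Ras with GTP. B1a cells are a self-renewing, natural-antibody-producing B cell subset known for a muted calcium response to receptor ligation, whereas most splenic B cells are follicular.

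Values are given in the units of the deposited table, a normalised score whose log base is not given in the sources used here, so that differences are stated in units and not as folds. The levels of different probe sets cannot be set against each other. Array medians ran from 0.68 to 1.12, and 22.8 to 35.6% of the values of an array shared its lowest value. Values under 0.495 were raised to that floor before the fit. Over the 35032 probe sets that passed the filter, with the floor applied, arrays of a group correlated at r = 0.784 to 0.968. Arrays of different groups did so at 0.701 to 0.976. Earlier work on these data had put 4 arrays in doubt as apart from their groups (Sle2c1_B1a 4, B6_Bs 1 and 3, and Sle2c1_Bs 3). B cell identity markers averaged 3.06 ± 0.0264 and 3.04 ± 0.0263 in the B1a groups of B6 and Sle2c1, and 3.16 ± 0.064 and 3.13 ± 0.0223 in the Bs groups (SD, n = 4 each, 8 genes). Cd5, the surface protein used for the B1a selection, was at the floor on all 8 Bs arrays and averaged 1.08 ± 0.304 in B6_B1a and 0.745 ± 0.342 in Sle2c1_B1a, where 2 of the 4 arrays were at the floor.

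Between the cell types, the members did not all differ in 1 direction. In B1a cells of both strains the adaptor Blnk and the Ras activator Rasgrp3 were lower by the widest margins, the receptor chain Cd79b and the kinase Btk were lower by less, and Syk was the single member that was higher. In B6, 5 of the 8 members passed at an adjusted p under 0.05 in limma, 1 higher and 4 lower in B1a, where 21.3% of all 22727 features passed (9.02% higher and 12.2% lower). In Sle2c1, 7 of 8 passed, 1 higher and 6 lower, where 25.8% of features passed (11% higher and 14.7% lower). The members did not overlap between B1a and Bs for 5 of 8 in B6 and 7 of 8 in Sle2c1, beside 22.4% and 25.5% of all features. Every member but Rasgrp3 exceeded the floor throughout, and of the 8943 features that did so 30.9% and 35.6% passed. The median member difference, B1a minus Bs, was -0.167 in B6 and -0.215 in Sle2c1, beside -0.0525 and -0.045 over all features. Over the 8943 features above the floor throughout it was -0.02 and -0.0425. In these bulk samples fewer cells of a type and less RNA per cell cannot be told apart. As the origin of the replicates is not stated beyond their number, p-values measure the spread between these arrays.

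**Figure D1:**
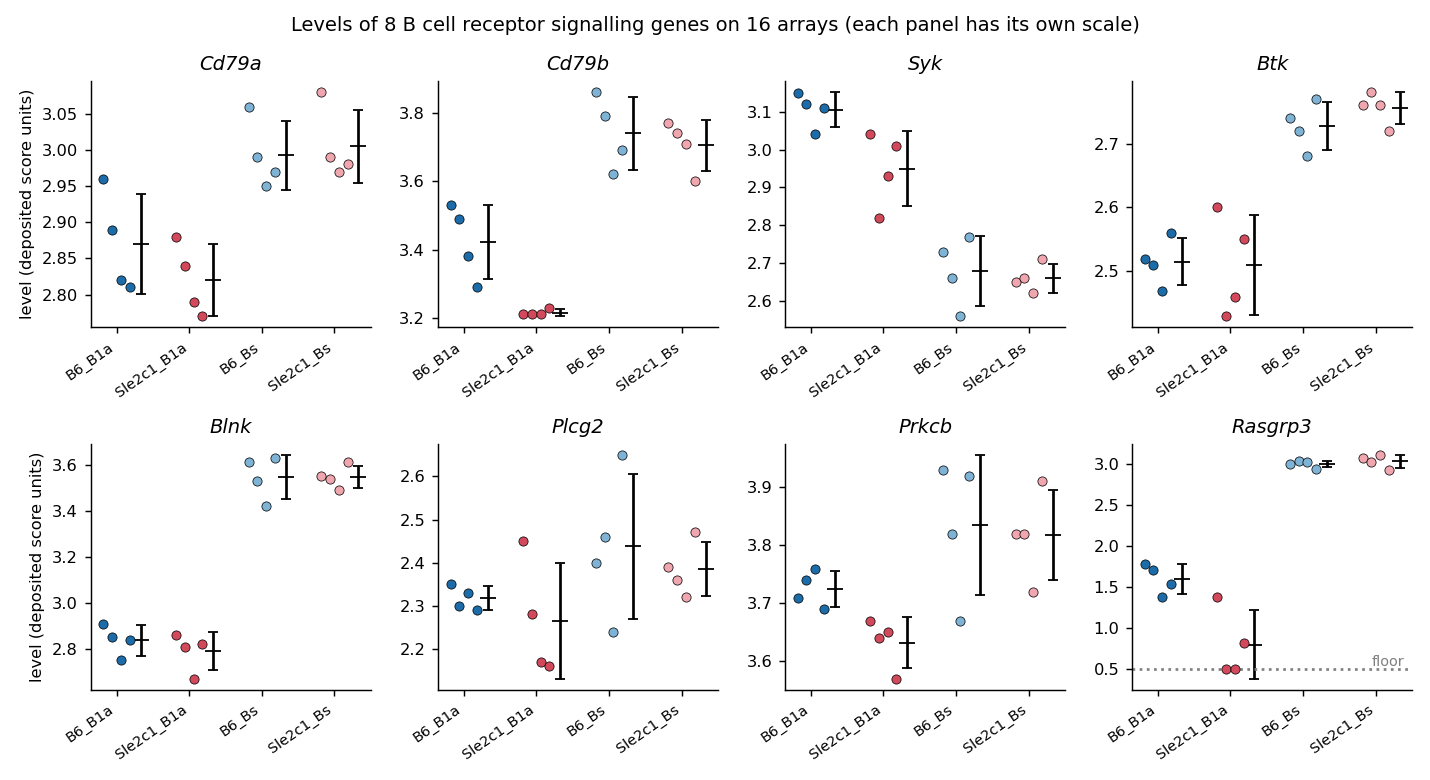
Levels of the 8 measured members on all 16 arrays, in units of the deposited score, with 4 points per group, a bar for their mean ± SD, a scale of its own in each panel, and values under the floor drawn at 0.495. Blnk and Rasgrp3 stand apart between B1a and Bs arrays without overlap, Syk is higher on all B1a arrays, and Rasgrp3 is spread most widely in Sle2c1_B1a.

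The receptor chains come first in the pathway. Cd79b, which with Cd79a forms the signalling dimer of the receptor, measured 3.53, 3.49, 3.38 and 3.29 on the B6_B1a arrays and 3.21, 3.21, 3.21 and 3.23 on the Sle2c1_B1a arrays. It measured 3.86, 3.79, 3.62 and 3.69 on the B6_Bs arrays and 3.77, 3.74, 3.71 and 3.60 on the Sle2c1_Bs arrays. Every B1a array lay below every Bs array, and within the B1a arrays the 4 from Sle2c1 lay below the 4 from B6. The difference between B1a and Bs was -0.32 (SE 0.0681, adjusted p = 0.00433) in B6 and -0.49 (adjusted p = 0.000105) in Sle2c1. With each array centred on its median, the difference in B6 did not pass (-0.29, adjusted p = 0.123).

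Cd79a, the other chain of the dimer, had a narrower gap. The B1a arrays measured 2.96, 2.89, 2.82 and 2.81 in B6 and 2.88, 2.84, 2.79 and 2.77 in Sle2c1. The Bs arrays measured 3.06, 2.99, 2.95 and 2.97 in B6 and 3.08, 2.99, 2.97 and 2.98 in Sle2c1. The B6 groups overlapped through the top B6_B1a array, and the Sle2c1 groups did not overlap. The difference was -0.12 in B6 (95% interval -0.24 to -0.01, adjusted p = 0.119) and -0.19 in Sle2c1 (adjusted p = 0.021). In Sle2c1 it no longer passed without Sle2c1_Bs replicate 1 (-0.16, adjusted p = 0.0672), without the 4 arrays in doubt (adjusted p = 0.0511) or with arrays centred on their medians (adjusted p = 0.228). In B6 it passed with a floor at 1 unit, with only features above the 40th percentile on all 16 arrays, and with limma's trend and robust options (adjusted p = 0.041, 0.0338 and 0.0411).

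Promoter sequence is shown for Cd79a, Blnk, Prkcb and Rasgrp3. Blnk and Rasgrp3 differed most between the cell types, and Cd79a is the classical B lineage promoter. Blnk and Prkcb alone held a full octamer among the 7 members whose promoters were searched. Each line gives the 250 bases before the RefSeq transcription start on GRCm38.p6, in the direction of the gene, and the region on the genome is chr7:24897247-24897496 (+) for Cd79a, chr19:40994222-40994471 (-) for Blnk, chr7:122288875-122289124 (+) for Prkcb and chr17:75435655-75435904 (+) for the first of the RefSeq starts of Rasgrp3. Capitals mark the octamer ATGCAAAT, the site read by Oct factors, or the E2A core CAGGTG, on either strand.
Cd79a: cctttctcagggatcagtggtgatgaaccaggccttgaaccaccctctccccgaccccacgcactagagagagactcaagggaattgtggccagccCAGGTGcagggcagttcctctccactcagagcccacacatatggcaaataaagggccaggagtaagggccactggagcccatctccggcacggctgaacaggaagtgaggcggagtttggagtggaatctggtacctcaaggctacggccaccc
Blnk: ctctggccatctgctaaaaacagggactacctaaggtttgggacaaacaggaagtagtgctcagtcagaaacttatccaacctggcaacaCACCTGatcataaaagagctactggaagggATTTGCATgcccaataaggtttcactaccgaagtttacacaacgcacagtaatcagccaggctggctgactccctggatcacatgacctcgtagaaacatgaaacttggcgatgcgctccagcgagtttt
Prkcb: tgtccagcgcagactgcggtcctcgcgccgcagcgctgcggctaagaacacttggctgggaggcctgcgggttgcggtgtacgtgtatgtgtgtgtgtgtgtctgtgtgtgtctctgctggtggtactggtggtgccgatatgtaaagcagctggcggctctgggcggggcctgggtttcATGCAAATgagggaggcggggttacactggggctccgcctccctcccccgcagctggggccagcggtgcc
Rasgrp3: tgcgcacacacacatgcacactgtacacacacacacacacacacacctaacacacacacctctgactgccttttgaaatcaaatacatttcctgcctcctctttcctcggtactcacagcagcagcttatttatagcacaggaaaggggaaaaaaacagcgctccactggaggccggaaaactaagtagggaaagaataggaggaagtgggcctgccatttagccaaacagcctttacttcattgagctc
The table of promoters held 9 windows of 7 members, each from 250 bases before to 50 after the start. It held none for Cd79b or Lyn, which were not searched. The octamer was in 2 of them, 130 to 123 bases before the start of Blnk on the reverse strand and 70 to 63 bases before that of Prkcb on the forward strand, against 1.74% of all 32851 windows in the table. The E2A core was in 5 of the 9 windows, those of Cd79a, Blnk, Plcg2 and both starts of Syk, against 20.2% of all windows. The first 5 letters of the octamer, ATGCA, which lie inside every octamer, were in 5 windows of 4 genes (Blnk, Plcg2, Prkcb and Rasgrp3), against 32.6%. The Ebf1 core CCCNNGGG was in 0 of the 9, against 13.7%. Only exact matches were counted. A stretch that departs from this core by a letter, such as ctcaaggg in the Cd79a window, was not, so that the count does not show that the members lack Ebf1 sites. These are letter matches only. Rasgrp3, the member with the widest differences, had neither the octamer nor the E2A core in the windows of its RefSeq starts.

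Syk, the kinase that docks on the phosphorylated receptor chains, was the member that was higher in B1a cells. Its probe set with the highest mean, 1418261_at, measured 3.15, 3.12, 3.04 and 3.11 in B6_B1a and 3.04, 2.82, 2.93 and 3.01 in Sle2c1_B1a. The Bs arrays measured 2.73, 2.66, 2.56 and 2.77 in B6 and 2.65, 2.66, 2.62 and 2.71 in Sle2c1. No B1a array overlapped a Bs array. The difference was 0.42 in B6 (SE 0.0624, 95% interval 0.29 to 0.56, adjusted p = 0.000225) and 0.29 in Sle2c1 (95% interval 0.16 to 0.42, adjusted p = 0.00346).

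The other probe sets of Syk did not all give the same difference, and 1 of their 6 results (3 probe sets in 2 strains) passed. With each probe set tested as its own feature, 1418262_at was higher in B1a in B6 (0.27, adjusted p = 0.0222) and differed by 0.15 in Sle2c1 (adjusted p = 0.15). The low probe set 1425797_a_at, at the floor on 2 of 16 arrays, differed by 0.43 and 0.17 (adjusted p = 0.0827 and 0.485). The probe set 1457239_at had -0.25 in B6 and 0.00 in Sle2c1 (adjusted p = 0.123 and 1). When the probe sets of a gene were averaged, Syk in Sle2c1 did not pass (0.15, adjusted p = 0.117), nor did it with arrays centred on their medians (adjusted p = 0.14). The call for Syk in B6 held under every alternative run, that of leaving out each array in turn included.

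Btk, the Tec family kinase that phosphorylates Plcg2 and whose loss removes B1a cells in mice, was lower in B1a. It measured 2.52, 2.51, 2.47 and 2.56 in B6_B1a and 2.60, 2.43, 2.46 and 2.55 in Sle2c1_B1a. It measured 2.74, 2.72, 2.68 and 2.77 in B6_Bs and 2.76, 2.78, 2.76 and 2.72 in Sle2c1_Bs. The lowest Bs array, at 2.68, was above the highest B1a array, at 2.60. The difference was -0.21 in B6 (SE 0.0509, adjusted p = 0.00887) and -0.25 in Sle2c1 (adjusted p = 0.00271). It had nearly the same size with arrays centred on their medians (-0.19 and -0.27) but did not pass there (adjusted p = 0.273 and 0.0922).

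**Figure D2:**
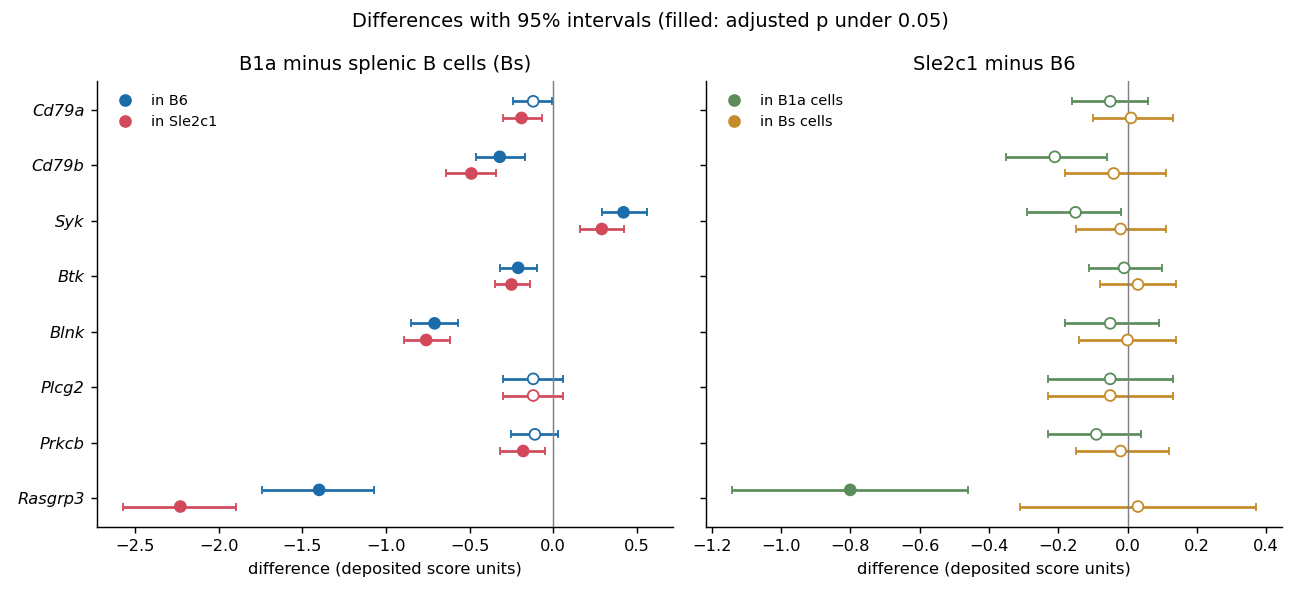
Differences of the 8 members between B1a and Bs in each strain (left) and between Sle2c1 and B6 in each cell type (right), in units of the deposited score with 95% intervals, filled where the adjusted p was under 0.05. Rasgrp3 has the widest differences, at -1.40 in B6 and -2.23 in Sle2c1 on the left and -0.80 in B1a on the right, and Syk is the only filled point above 0.

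Blnk, the adaptor that couples Syk to Btk and Plcg2, separated the cell types without overlap. It measured 2.91, 2.85, 2.75 and 2.84 in B6_B1a and 2.86, 2.81, 2.67 and 2.82 in Sle2c1_B1a. It measured 3.61, 3.53, 3.42 and 3.63 in B6_Bs and 3.55, 3.54, 3.49 and 3.61 in Sle2c1_Bs. The highest B1a array, at 2.91, lay below the lowest Bs array, at 3.42. The difference was -0.71 in B6 (SE 0.0632, 95% interval -0.85 to -0.57, adjusted p = 1.72e-06) and -0.76 in Sle2c1 (95% interval -0.89 to -0.62, adjusted p = 7.10e-07). Both calls held under every alternative run. The means of the strains were 3.55 ± 0.0954 and 3.55 ± 0.0492 in Bs and 2.84 ± 0.066 and 2.79 ± 0.0829 in B1a (SD, n = 4 each).

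Plcg2, the phospholipase that Btk activates, gave no call in any comparison. The B1a arrays spanned 2.29 to 2.35 in B6 and 2.16 to 2.45 in Sle2c1, and the Bs arrays 2.24 to 2.65 and 2.32 to 2.47. The groups overlapped. The difference between B1a and Bs was -0.12 in both strains (adjusted p = 0.338 in B6 and 0.314 in Sle2c1), and the 95% interval in B6 ran from -0.30 to 0.06, which leaves room for a difference as large as that of Btk.

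Prkcb, the protein kinase C isoform that leads from diacylglycerol to NF-kB in B cells, was lower in B1a in Sle2c1 by a call near the threshold. The probe set 1423478_at measured 3.71, 3.74, 3.76 and 3.69 on the B1a arrays of B6 and 3.67, 3.64, 3.65 and 3.57 on those of Sle2c1. It measured 3.93, 3.82, 3.67 and 3.92 on the Bs arrays of B6 and 3.82, 3.82, 3.72 and 3.91 on those of Sle2c1. The B6 groups overlapped through the third B6_Bs array, and the Sle2c1 groups did not. The difference was -0.11 in B6 (95% interval -0.25 to 0.03, adjusted p = 0.241) and -0.18 in Sle2c1 (adjusted p = 0.0467). The call in Sle2c1 was lost in 7 of 13 other settings and in 12 of the 16 fits that each leave out 1 array (0.0561 to 0.114).

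A second probe set of Prkcb, 1460419_a_at, gave a wider gap. It ran from 3.49 to 3.58 in B6_B1a and 3.47 to 3.51 in Sle2c1_B1a, and from 3.71 to 3.90 in B6_Bs and 3.76 to 3.85 in Sle2c1_Bs. No B1a array overlapped a Bs array. As its own feature it was lower in B1a by -0.28 in B6 (adjusted p = 0.00171) and -0.32 in Sle2c1 (adjusted p = 0.000443). With the probe sets of a gene averaged, Prkcb was lower in B6 as well (-0.20, adjusted p = 0.0295). The third probe set, 1443144_at, was above the filter on 3 arrays only and was not tested.

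**Figure D3:**
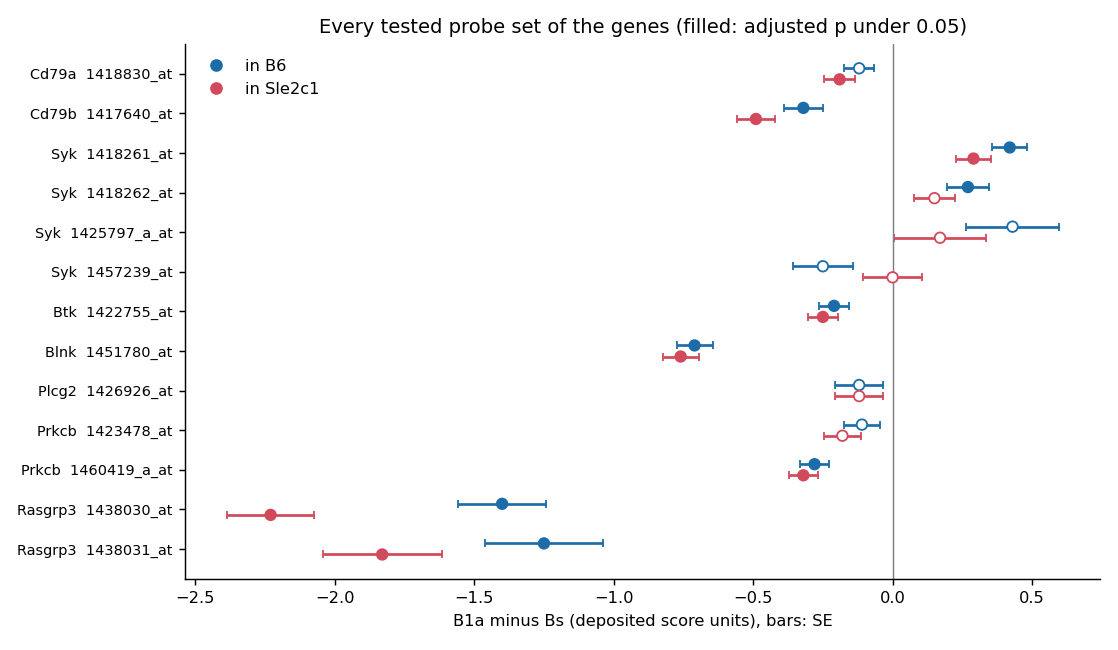
Differences between B1a and Bs for each of the 13 probe sets of the members that passed the filter, in units of the deposited score with bars of 1 SE, in B6 and in Sle2c1, filled where the adjusted p was under 0.05. Both probe sets of Rasgrp3 lie far below 0, those of Prkcb lie below 0 with 1460419_a_at farther than 1423478_at, and those of Syk fall on both sides.

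Rasgrp3, the exchange factor that diacylglycerol brings to the membrane to activate Ras, had the widest differences among the members. The probe set 1438030_at measured 3.00, 3.03, 3.02 and 2.94 in B6_Bs and 3.07, 3.02, 3.10 and 2.92 in Sle2c1_Bs. It measured 1.78, 1.70, 1.37 and 1.53 in B6_B1a and 1.38, 0.42, 0.16 and 0.81 in Sle2c1_B1a. The Bs arrays of both strains lay close together, the B6_B1a arrays lay more than 1 unit lower, and the Sle2c1_B1a arrays were spread more widely, from the range of B6_B1a down to 2 arrays under the floor. B1a minus Bs was -1.40 in B6 (SE 0.157, 95% interval -1.74 to -1.07, adjusted p = 1.77e-05) and -2.23 in Sle2c1 (95% interval -2.57 to -1.90, adjusted p = 1.19e-07). Among the features with a lower mean in B1a, it ranked 85 by size in B6 and 16 in Sle2c1. The second probe set, 1438031_at, ran from 2.78 to 2.90 over the 8 Bs arrays. It measured 1.62, 1.72, 1.50 and 1.47 in B6_B1a and 1.79 and 1.22 on the first and second Sle2c1_B1a arrays, with the other two under the floor. Its differences as a feature of its own were -1.25 (adjusted p = 0.000802) and -1.83 (adjusted p = 2.01e-05). The cell type calls for Rasgrp3 held in both strains under every alternative in which it was tested. It was not tested where a feature had to be above the 40th percentile on all 16 arrays.

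Between the strains, Rasgrp3 in B1a cells was the single member that passed. In B1a, 1 of 8 members was called, lower in Sle2c1, where 3.38% of features were called (1.93% higher and 1.45% lower). The median member difference was -0.0725, beside 0.025 over all features and -0.0075 over the 8943 that exceeded the floor throughout. In Bs, 0 of 8 were called, where 0.154% of features were called (35 features, or 1 with the replicate number as a block). In Bs 778 features had an unadjusted p under 0.05, and no member was among them. The comparisons share arrays, as each group enters a strain and a cell type comparison, so that their values are given side by side.

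Rasgrp3 averaged 1.60 ± 0.183 in B6_B1a and 0.795 ± 0.417 in Sle2c1_B1a (SD, n = 4 each, values under the floor raised to it). The difference was -0.80 (SE 0.157, 95% interval -1.14 to -0.46, adjusted p = 0.0107). The groups overlapped, with the highest Sle2c1_B1a array at 1.38 and the lowest B6_B1a array at 1.37. The call held on leaving out each array in turn (adjusted p 9.12e-05 to 0.0399). With the fit limited to the 8 B1a arrays the adjusted p was 0.15, and without the 4 arrays in doubt it was 0.055. The difference was -0.80 in both. Over all 12 other settings in which it was tested, the difference ran from -0.91 to -0.50, and 9 kept the call. The second probe set differed by -0.58 (adjusted p = 0.174) as a feature of its own.

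Macrophage markers moved with this comparison. The list, 18 genes on the array, averaged 1.75 ± 0.398 in B6_B1a, from 1.26 to 2.24 by array, and 0.998 ± 0.0401 in Sle2c1_B1a, from 0.956 to 1.05, where 7 of the 18 were at the floor on all 4 arrays. Of the 17 tested, 8 were lower in Sle2c1_B1a, where 1.45% of all features were called lower. The T cell and plasma cell lists each had 1 gene called lower, Cd3g (-0.87, adjusted p = 0.0146) and Jchain (-0.59, adjusted p = 0.00797). The remaining marker lists had no call in this comparison. Follicular and marginal zone markers, 4 genes, averaged 1.54 ± 0.199 in B6_B1a and 1.36 ± 0.2 in Sle2c1_B1a, against 2.76 ± 0.0381 in B6_Bs and 2.86 ± 0.0301 in Sle2c1_Bs. Of these 4, 0 passed between the strains in B1a. Among the Sle2c1_B1a arrays that list measured 1.48, 1.11, 1.28 and 1.55. Cr2, with the widest gap between B1a and Bs of the 4, measured 1.32, 0.66, 0.495 and 1.12, the array order of Rasgrp3 through 1438030_at. The other genes of the list did not have that order. Fcer2a measured 0.495, 0.495, 0.495 and 1.06, Cd1d1 1.64, 0.75, 1.61 and 1.53, and Cxcr5 2.47, 2.53, 2.52 and 2.49. Cxcr5 was not called between B1a and Bs in either strain. The second Rasgrp3 probe set, 1438031_at, did not have the order of Cr2, with Sle2c1_B1a array 2 at 1.22 and array 4 under the floor. In B6_B1a Cr2 measured 1.43, 1.19, 1.08 and 1.22, and 1438030_at had another order (1.78, 1.70, 1.37 and 1.53). The part of the cells that these lists mark in the difference of Rasgrp3 was not tested.

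**Figure D4:**
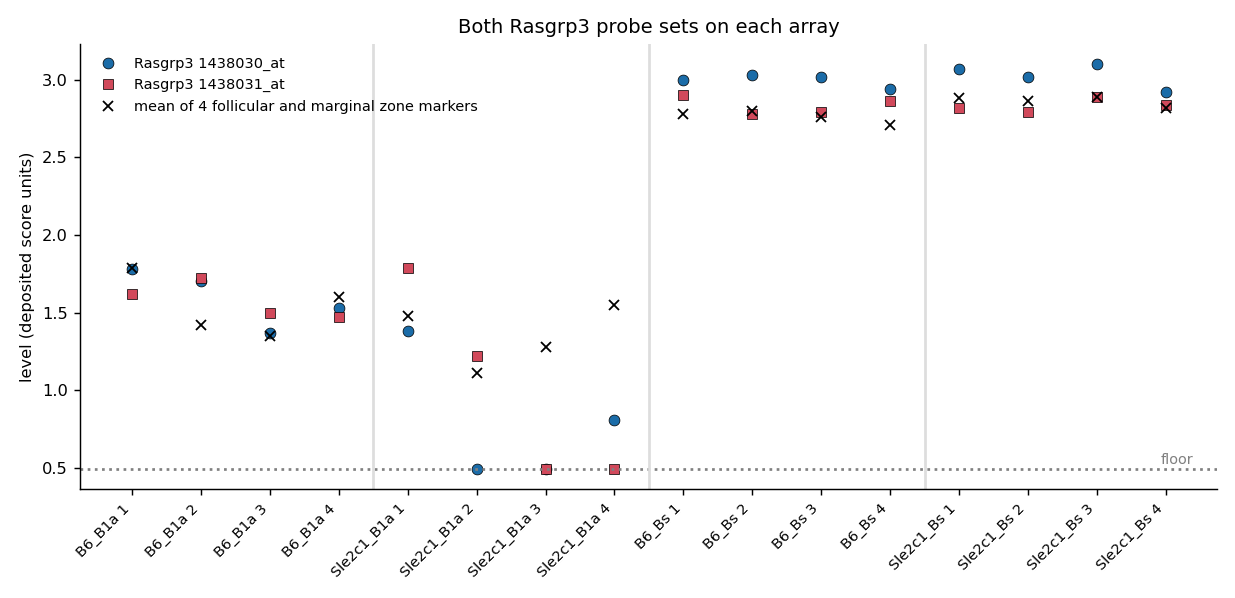
Rasgrp3 on each of the 16 arrays through both of its probe sets, in units of the deposited score with values under the floor of 0.495 drawn at the floor (circles and squares), beside the mean of the 4 follicular and marginal zone markers (crosses). The Bs arrays sit near 3 for Rasgrp3, the B6_B1a arrays between 1.37 and 1.78, and 2 Sle2c1_B1a arrays are at the floor for each probe set.

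For the other members the strain differences in B1a were small. Cd79b differed by -0.21 (SE 0.0681, 95% interval -0.35 to -0.06, adjusted p = 0.125) without overlap between the groups, and passed with limma's trend and robust options (adjusted p = 0.0302). Prkcb differed by -0.09 (adjusted p = 0.495), also without overlap. Among all features 8.38% did not overlap between the strains in B1a, 4.15% with the Sle2c1 arrays lower. Syk differed by -0.15 (adjusted p = 0.217), Cd79a, Blnk and Plcg2 by -0.05 each (adjusted p = 0.668, 0.734 and 0.786) and Btk by -0.01 (adjusted p = 0.976).

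In splenic B cells no member was called between the strains. The differences ran from -0.05 to 0.03, and the adjusted p was 1 for all 8 members. The 95% interval was -0.14 to 0.14 for Blnk, -0.15 to 0.11 for Syk, -0.08 to 0.14 for Btk, -0.18 to 0.11 for Cd79b and -0.31 to 0.37 for Rasgrp3. It was -0.10 to 0.13 for Cd79a, -0.23 to 0.13 for Plcg2 and -0.15 to 0.12 for Prkcb.

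Whether the strain difference itself differed between the cell types was tested as an interaction. No member passed, and 0.431% of all features did (1686 had an unadjusted p under 0.05). Rasgrp3 had -0.83 (SE 0.222, 95% interval -1.31 to -0.35, adjusted p = 0.196). Without Sle2c1_B1a replicate 1, the array with the highest Rasgrp3 of its group, it was -1.02 and passed (adjusted p = 0.00355).

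The wider pathway was followed through 107 listed genes, of which 88 were tested. Between the strains 0 of the 88 were called in B1a and 0 in Bs, where 3.38% and 0.154% of all features were called. Between the cell types 15 were higher and 23 lower in B1a in B6, and 14 were higher and 38 lower in Sle2c1, with median differences of -0.0837 and -0.174. Of all features, 21.3% and 25.8% were called in these comparisons. Values are given below for B6 and then for Sle2c1, and whether they differ between the strains is the interaction, in which 0 of the 88 were called.

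At the receptor, 2 of 3 receptor chain and co-receptor genes were lower in both strains and 0 were higher. The heavy chain gene Ighm was the member of that list without a call (-0.17 and -0.15). The complement receptor Cr2, which lowers the threshold for B cell activation, was lower in B1a by -2.09 in B6 (adjusted p = 1.08e-07) and -2.54 in Sle2c1 (adjusted p = 1.12e-08). Cd81, its tetraspanin partner, was lower by -0.16 and -0.26 (adjusted p = 0.0338 and 0.00151). Of 6 further early kinases, the Src family member Fyn was lower (-0.48 and -0.38, adjusted p = 7.37e-05 and 0.000453), as was Tec, the relative of Btk (-0.46 and -0.63, adjusted p = 0.00567 and 0.000407). Fgr, a Src family kinase abundant in myeloid cells, had 0.16 (adjusted p = 0.261) in B6 and was higher in Sle2c1 (0.44, adjusted p = 0.00432).

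Among 10 adaptors, 1 was higher and 3 were lower in B6, and 0 were higher and 5 lower in Sle2c1. Sh3bp2, an adaptor that binds Syk and Plcg2, was lower by -0.42 and -0.53 (adjusted p = 0.0121 and 0.00188). Pik3ap1, the adaptor BCAP that links the receptor to PI3K, was lower by -0.39 and -0.25 (adjusted p = 0.00265 and 0.0308), and the docking protein Gab2 by -1.10 and -1.48 (adjusted p = 0.0287 and 0.00407). Grb2, the adaptor of Sos, was higher in B6 (0.19, adjusted p = 0.0385) and had 0.14 in Sle2c1 (adjusted p = 0.103). Of 8 PI3K genes 2 were higher and 1 was lower in each strain. The catalytic subunit Pik3cd was higher (0.51 and 0.42, adjusted p = 0.0187 and 0.0396), as was the kinase Akt1 (0.34 and 0.27, adjusted p = 0.00341 and 0.0119). The regulatory subunit Pik3r1 was lower (-0.26 and -0.42, adjusted p = 0.0237 and 0.000795).

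Downstream of Plcg2, 3 of 13 calcium and NFAT genes were higher in both strains, with 3 lower in B6 and 6 in Sle2c1. The transcription factor Nfatc1 was higher by 0.68 and 0.77 (adjusted p = 3.36e-05 and 7.53e-06) and the calcium sensor Stim2 by 0.58 and 0.55 (adjusted p = 0.000323 and 0.000363). The diacylglycerol kinase Dgka, which removes the lipid that activates Prkcb and Rasgrp3, was lower by -0.49 and -0.75 (adjusted p = 0.00116 and 2.01e-05). Its relative Dgkz was lower by -0.33 and -0.37 (adjusted p = 0.0144 and 0.00655). Nfatc3 had -0.13 in B6 (adjusted p = 0.16) and was lower in Sle2c1 (-0.35, adjusted p = 0.000908).

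Next to Prkcb, 2 of 11 protein kinase C and NF-kB genes were higher and 1 was lower in B6, and 3 were higher and 3 lower in Sle2c1. The isoform Prkca was higher in B1a by 0.54 and 0.40 (adjusted p = 2.89e-05 and 0.000379) and the NF-kB subunit Rela by 0.73 and 0.80 (adjusted p = 1.59e-05 and 5.38e-06). Bcl10, part of the complex that Prkcb turns on, was lower by -0.20 and -0.28 (adjusted p = 0.0157 and 0.0011). The isoform Prkcd had -0.32 in B6 (adjusted p = 0.19) and was lower in Sle2c1 (-0.82, adjusted p = 0.00208).

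Next to Rasgrp3, 2 of 11 Ras and MAP kinase genes were higher in both strains, and 4 were lower in B6 and 6 in Sle2c1. Those higher were the Ras exchange factors of the other family, Sos1 (0.47 and 0.42, adjusted p = 9.49e-06 and 2.15e-05) and Sos2 (0.23 and 0.19, adjusted p = 0.00929 and 0.0184). Map2k1 (MEK1) was lower by -0.27 and -0.33 (adjusted p = 0.00193 and 0.000323). The kinase Braf was lower by -0.31 and -0.34 (adjusted p = 0.018 and 0.00744). Rasgrp2, of the same family as Rasgrp3, had -0.50 in B6 (adjusted p = 0.074) and was lower in Sle2c1 (-1.17, adjusted p = 0.000412). Of 8 Vav and Rac genes, 1 was higher and 1 lower in B6, and 0 were higher and 3 lower in Sle2c1. The Rac exchange factor Vav2 was lower by -0.32 and -0.31 (adjusted p = 0.00175 and 0.00167). Vav3 had -0.49 in B6 (adjusted p = 0.0542) and was lower in Sle2c1 (-0.94, adjusted p = 0.00091). Rac2 was higher in B6 (0.17, adjusted p = 0.0275) and had 0.14 in Sle2c1 (adjusted p = 0.0549).

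Among 18 phosphatases and inhibitors, 4 were higher and 6 lower in B6, and 3 were higher and 10 lower in Sle2c1. Fcgr2b, the inhibitory Fc receptor, was higher by 0.55 and 0.60 (adjusted p = 2.92e-06 and 9.71e-07), and the phosphatase Ptpn22 by 0.72 and 0.87 (adjusted p = 2.25e-06 and 2.55e-07). Pag1, the anchor that brings Csk to Src family kinases, was lower by -0.64 and -0.80 (adjusted p = 3.09e-06 and 2.67e-07). Ptpn6, the phosphatase SHP-1, was lower by -0.52 and -0.44 (adjusted p = 8.38e-06 and 3.24e-05), and the inhibitory receptor Cd72 by -1.15 and -1.53 (adjusted p = 3.57e-05 and 1.70e-06). Cd5, by which the B1a cells were selected, is 1 of the 4 genes higher in B6 (0.58, adjusted p = 0.0164). It was not called in Sle2c1 (0.25, adjusted p = 0.253).

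**Figure D5:**
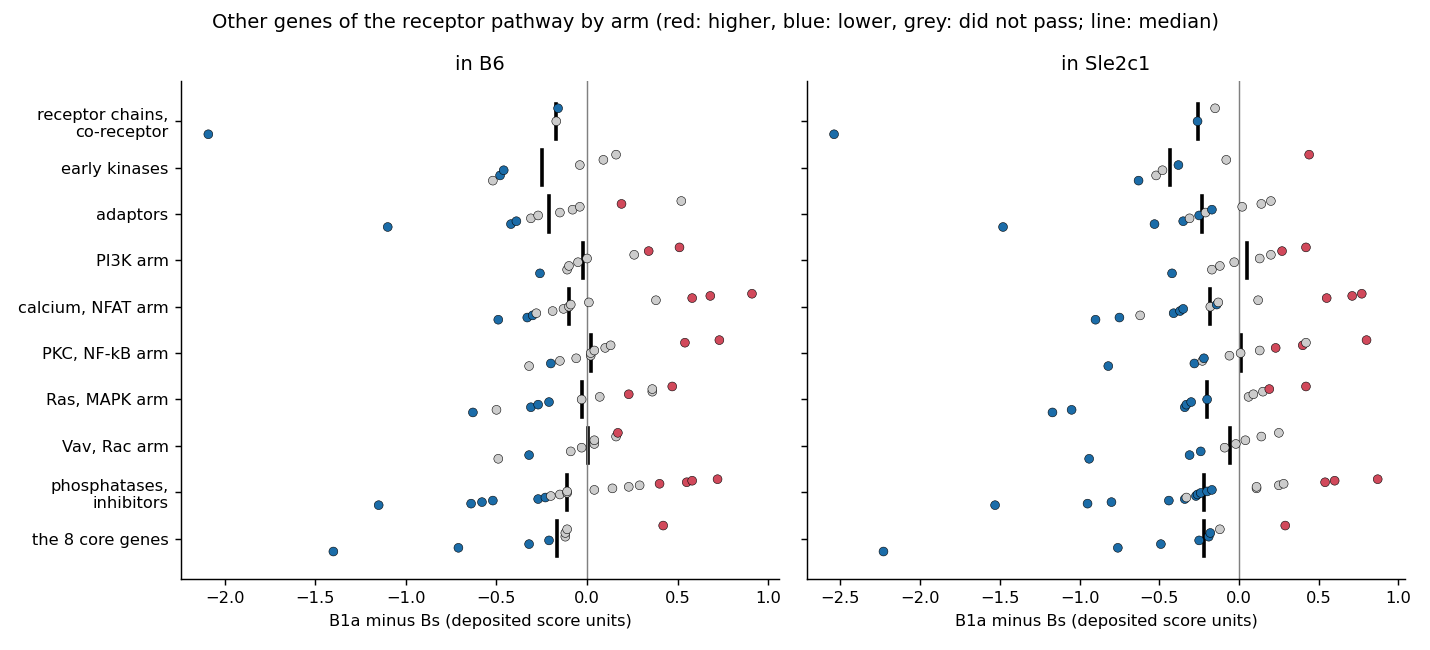
Differences between B1a and Bs of the members and of the 88 further tested genes by step of the pathway, in units of the deposited score, in B6 and in Sle2c1, red where higher and blue where lower at an adjusted p under 0.05, grey otherwise, with a line at each median. The first step lies below 0, with Cr2 at -2.54 in Sle2c1, and every later step, the members included, holds points on both sides of 0.

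Cells other than B cells differed between the B1a and Bs arrays as well, and their part in the member differences was not tested. Of 8 B cell markers, 4 were lower in B1a in each strain, with 1 higher in B6. Ms4a1 (CD20) had -0.17 and -0.23, Cd22 -0.23 and -0.17, Ebf1 -0.23 and -0.26, and Cd74 -0.18 and -0.22. Cd37 was higher in B6 (0.27) and had 0.14 in Sle2c1, Fcrla had 0.06 and 0.13, Pax5 -0.12 and 0.03, and Ighm -0.17 and -0.15, so that the B cell markers did not all differ in 1 direction. B1a markers averaged 2.09 and 1.99 in the B1a groups and 1.16 and 1.15 in the Bs groups of B6 and Sle2c1, with 7 and 5 of 10 higher. Macrophage markers averaged 1.20 ± 0.0438 in B6_Bs and 0.998 ± 0.0768 in Sle2c1_Bs, and 11 of 17 were higher and 2 lower in B1a in B6, with 3 higher and 5 lower in Sle2c1. Mast cell markers averaged 1.43 and 1.16 in B1a against 0.622 and 0.691 in Bs. T cell markers averaged 1.19 and 1.04 against 0.939 and 0.876. The mean of both lists was thus above that of the Bs groups in both strains, and that of NK cells was below it. NK cell markers averaged 0.688 and 0.705 against 1.34 and 1.23. Neutrophil markers averaged 1.58 and 1.74 against 1.61 and 1.39, and dendritic cell markers 0.972 and 0.965 against 1.05 and 0.906. Erythroid markers averaged 0.626 and 0.558 against 0.839 and 0.582, and plasma cell markers 3.00 and 2.76 against 2.85 and 2.81.

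The genes whose pattern over the 16 arrays was most like that of each member were found by the mean absolute difference after centring each gene on its own mean, over candidate named genes that exceeded the floor throughout. Rasgrp3 itself was at the floor on 2 arrays, and genes at the floor on any array, such as Cr2, were not candidates. Arrays of a group share cell type and strain, so that likeness here is a description of levels. Rasgrp3 lay nearest to the immunoglobulin joining chain gene Jchain (0.183 units), Cd72 (0.246) and Meaf6 (0.257), where the median over candidates was 0.906. Jchain ran from 2.31 to 2.68 in B6_B1a and from 1.57 to 2.19 in Sle2c1_B1a, and from 3.79 to 3.95 over the Bs arrays. These genes were picked for their likeness, so that their levels are a description only.

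Blnk lay nearest to the surface glycoprotein gene Cd200 (0.0458), Atxn7 (0.0462) and Pja2 (0.0506), against a median of 0.369. Cd79b lay nearest to Klhl24 (0.0458), the transcription factor Foxo3 (0.0463) and Klf3 (0.0535), against 0.224. Syk lay nearest to the galactosyltransferase B4galt1 (0.0392), Plp2 (0.0503) and the amino acid transporter Slc38a2 (0.0509), against 0.206. Btk lay nearest to Tnks2 (0.0303), Tax1bp1 (0.0303) and Ibtk (0.0312), the last of which encodes a protein known to bind and inhibit Btk, against 0.153. The neighbours of these members were of varied known function. Cd79a lay nearest to Celf1 (0.0302), Napg (0.032) and Usp12 (0.0327), against 0.134. Plcg2 lay nearest to Pkig (0.0321), Capza1 (0.0395) and Ttc13 (0.0395), against 0.137. Prkcb lay nearest to the ribosomal protein gene Rpl38 (0.0231), the NF-kB inhibitor Nfkbia (0.0269) and Rpf2 (0.0273), against 0.136. No member was among the 3 genes nearest to another, picked from 6998 candidates (6999 for Rasgrp3). Few of the candidates were members, so that this does not show whether the members are alike. Within the members the closest pair was Plcg2 and Prkcb (0.0548) and the farthest Syk and Rasgrp3 (1.09).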

How the data were processed

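RNA of 16 arrays (4 groups of 4) was amplified and biotin-labelled, per the labels, and hybridised to an array with Affymetrix probe set names. The deposited table holds, per the labels, a normalised score for 45101 probe sets, of which 64 are controls. Its log base, centring, scaling and the software that made it are not given in the sources used here. The number of arrays limits the precision. No array duplicated another. The platform annotation gave 34945 probe sets 1 gene symbol, 932 several and 9160 none. Probe sets above the 40th percentile of their array on at least 4 arrays were kept (35032), values were raised to a floor of 0.495, and a gene was represented by its probe set with the highest mean, for 22727 features. All 16 arrays were fitted with 4 group means in limma 3.58.1 (R 4.3.3), and p-values were adjusted by Benjamini and Hochberg over all features at a threshold of 0.05. The fits were tested on simulated data. Promoters came from RefSeq.

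The members and lists were chosen with earlier results of these data known. Named were all members, up to 2 higher and 2 lower pathway genes with the smallest adjusted p per list and comparison, and the 3 genes most like each member. Whether replicate numbers pair samples is not stated in the labels. Deviations from the group means correlated between same-numbered Bs arrays of the strains at 0.387, 0.112, 0.621 and 0.431. Those of B1a arrays did so at 0.0853, -0.0111, 0.015 and 0.167, and those of the cell types at -0.275 to 0.168. Differently numbered arrays were not compared, so that these values do not settle whether arrays are paired. The comparisons were rerun under other floors, scalings, filters, gene summaries, spreads and blocks, and without each array.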

Additional observations from a re-analysis of the deposited data

Results flagged for a closer look

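In 1 of 32 groups of 4 arrays (8 members in 4 groups), a member value stood apart by Dixon's criterion. Cd79b measured 3.23 on Sle2c1_B1a array 4 and 3.21 on each of the other 3 arrays of that group, so that the gap is the whole range of the group and lies in the last digit of the table. Such a criterion is met by chance in about 1 in 20 groups.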

How the results depend on the processing

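Of the 13 calls on members, 145 of 166 reruns under another setting and 195 of 208 reruns without 1 array kept the call, and no call reversed. The calls for Blnk and Rasgrp3 between the cell types in both strains, Syk in B6 and Cd79b in Sle2c1 held in all in which they were tested. With arrays centred on their medians, 3 members instead of 5 passed in B6 and 3 instead of 7 in Sle2c1, and 21 pathway genes instead of 38 and 33 instead of 52. With the replicate number as a block in the 8 arrays compared, a pairing that the labels do not state, 3 members passed in Sle2c1. Pathway genes then numbered 22 in B6 and 27 in Sle2c1. Of all features, 2150 instead of 4833 passed in B6 and 2631 instead of 5856 in Sle2c1. Between the strains, 87 instead of 768 passed in B1a and 1 instead of 35 in Bs. That block also ended the calls for Btk in B6 and Sle2c1 (adjusted p = 0.0588 and 0.0928), Cd79a and Syk in Sle2c1 (0.11 and 0.0656), Prkcb (0.168) and Rasgrp3 between the strains in B1a (0.138).

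Between the strains in B1a, the count of members was 0 with features above the 40th percentile on all 16 arrays (Rasgrp3 is then not tested), with only the 8 arrays compared and without the 4 arrays in doubt, and 2 with trend and robust. The pathway count, 0 here, was 1 with a floor at 1, with median centring, with the replicate block over the 16 arrays and without the arrays in doubt, 4 with trend and robust, and 0 to 5 without 1 array. Of all features, 455 passed with no floor, 106 above the percentile on all arrays, 1231 of single probe sets and 371 with 8 arrays alone. In Bs 23 passed with a floor at 1, 16 with quantile normalization, 17 with median centring, 1 above the percentile on all arrays and 22 to 63 without 1 array. The interaction, at 98 features, had 43 with median centring, 0 above the percentile on all arrays, 162 of single probe sets, 10 with trend and robust and 48 to 183 without 1 array, where members numbered 0 to 1. The causes were not tested.

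Differences of members without a call changed sign between the strains in Bs for Prkcb under quantile normalization (0.01) and for Cd79a, Btk and Rasgrp3 under median centring (-0.06, -0.05 and -0.04). Without 1 array, those in Bs ran from -0.01 to 0.03 for Cd79a, -0.06 to 0.01 for Syk, -0.12 to 0.02 for Plcg2 and -0.07 to 0.02 for Prkcb, and that of Btk in B1a from -0.03 to 0.02. Of the features called between the strains in B1a 57.2% were higher in Sle2c1, and 49.2% under either scaling. In Bs the share was 80%, against 68.8% under quantile normalization and 70.6% under median centring. Between the cell types in Sle2c1 42.8% were higher in B1a, against 33.1% under median centring.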

Other observations

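Isoforms of the members' families differed between B1a and Bs in different directions. These were chosen after their values were seen. Rasgrp1, the family member best known from T cells, averaged 3.20 ± 0.187 in B6_B1a and 3.22 ± 0.0737 in B6_Bs, a difference of -0.03 (adjusted p = 0.853), and was lower in B1a in Sle2c1 by -0.30 (adjusted p = 0.0168). Rasgrp4 had 0.36 and 0.06 (adjusted p = 0.0922 and 0.774), so that Rasgrp3 alone of the 4 family genes passed as lower in both strains. Among the protein kinase C genes Prkce had 0.02 and 0.01 (adjusted p = 0.79 and 0.868), beside the lower probe set 1460419_a_at of Prkcb and the higher Prkca. Of the store-operated calcium entry genes, the channel gene Orai1 was higher in B1a by 0.91 and 0.71 (adjusted p = 0.000967 and 0.00453), as was its sensor Stim2, and Stim1 had 0.38 and 0.12 (adjusted p = 0.201 and 0.701). The inositol trisphosphate receptor gene Itpr2 was lower by -0.30 and -0.41 (adjusted p = 0.0253 and 0.00384).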
